A study of Mus musculus with 6 samples.

Results

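The G1 cyclins and the kinases they activate were followed here as 8 genes: Ccnd1, Ccnd2 and Ccnd3, which encode cyclins D1, D2 and D3; their partner kinases Cdk4 and Cdk6; Ccne1 and Ccne2, which encode cyclins E1 and E2; and Cdk2, the kinase of the E-type cyclins. Members were all probe sets, the groups of short probes that an array reads for one transcript, whose single gene symbol in the annotation of the array platform was 1 of these 8. This gave 24 of the 45101 probe sets on the array: 7 for Ccnd2, 3 each for Ccnd1, Ccnd3, Cdk4 and Cdk6, 2 each for Ccne1 and Cdk2, and 1 for Ccne2. No filter on low values was applied, so all 24 were tested.

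The cells compared were label-retaining haematopoietic stem cells (LRC) and non-label-retaining stem cells (non-LRC), with 3 arrays in each group. All mice were of the SCL-tTA H2B-GFP line, in which a tetracycline transactivator (tTA-S2) expressed from the endogenous scl locus drives a histone H2B-GFP fusion. Doxycycline shuts the fusion off, and GFP held in chromatin is then halved at each division. Both groups were taken from bone marrow after 170 days of doxycycline and shared a gate for cells positive for Sca1, cKit and CD150 and negative for lineage markers (Lin), CD48 and CD34. LRC were GFP+ and non-LRC were GFP Neg. The scl locus is active in early blood cells, so a GFP Neg cell may have diluted its label or may never have carried it, and these cannot be told apart here. The age and sex of the mice, and whether a sample was a single mouse or a pool, are not given in the sources used here. The labels call the samples independent biological replicates.

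Progress through G1 is driven in 2 steps. D-type cyclins accumulate when growth factors or cytokines act on the cell, bind CDK4 or CDK6 and start the phosphorylation of the retinoblastoma protein and its relatives. This frees E2F transcription factors, whose targets include the E-type cyclins. Cyclin E bound to CDK2 then completes the phosphorylation and starts DNA replication. In mice, haematopoietic cells depend on the D-type cyclins and on CDK4 and CDK6 together, and in human stem cells the level of CDK6 has been tied to how fast a resting cell leaves quiescence. Much of this control acts on proteins, through cyclin degradation and CDK inhibitors, and arrays of RNA do not see it.

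The 6 arrays were of even scale, with a median of 4.37 on each LRC array and of 4.33 to 4.39 on the non-LRC arrays (log2). LRC replicate 1 stood apart in its correlation with other arrays, which was 0.92 at most. Every other array reached 0.94 to 0.97 with the array most like it. The hybridization controls, transcripts added just before hybridization, averaged 11.24, 10.60 and 11.02 on LRC replicates 1, 2 and 3, and 10.58 to 10.70 on the non-LRC arrays, so that LRC replicates 1 and 3 stood above the rest. Controls added to the RNA before amplification read 12.79, 11.24 and 11.92 in LRC replicates 1, 2 and 3, against 11.88, 11.20 and 10.73 in the non-LRC replicates. The 3' minus 5' difference of Gapdh, a measure of RNA integrity and of amplification bias, was 3.16 to 4.16 in LRC and 2.72 to 3.42 in non-LRC. That of actin was -0.036, -0.13 and -0.61 in LRC replicates 1, 2 and 3, and -0.23 to -0.16 in non-LRC, with LRC replicate 3 apart from the rest. Of the gate genes, Kit (c-Kit) lay at 9.00 to 9.13 in LRC and 9.01 to 9.11 in non-LRC. Cd48 was low on all arrays, at 2.36 to 2.85 in LRC and 2.34 to 3.27 in non-LRC. Cd34, negative in the gate as a surface protein, was at 2.52, 6.97 and 5.10 in LRC and at 7.43, 6.60 and 5.62 in non-LRC. Slamf1 (CD150) was at 6.24, 7.76 and 8.83 in LRC and at 7.20, 8.26 and 8.48 in non-LRC. Ly6a (Sca1) was not measured by a probe set of its own. The 4 gate genes measured averaged 5.18 to 6.61 in LRC and 6.56 to 6.59 in non-LRC. This average mixes genes the gate selects for with genes it selects against, so it does not measure purity. The 3 long-term stem cell markers were bright in both groups, and 3 of 3 had a higher mean in LRC, though 0 passed the test. They averaged 10.54 to 10.98 in LRC and 10.40 to 10.49 in non-LRC, so the groups did not overlap in this mean. Lists of markers of other marrow cells overlapped between groups in their mean per array, and 0 of their genes passed the test. The 3 T cell markers averaged 3.28 to 3.70 in LRC and 3.40 to 3.65 in non-LRC, below the array medians. The 5 neutrophil and monocyte markers averaged 5.69 to 7.76 in LRC and 6.88 to 7.57 in non-LRC, and the 5 megakaryocyte and platelet markers 6.01 to 6.63 and 6.44 to 7.72. The 4 erythroid markers averaged 3.71 to 4.46 in LRC and 3.49 to 5.69 in non-LRC, the 4 B cell markers 4.10 to 5.17 and 3.96 to 4.32, and the 5 endothelial and stromal markers 4.26 to 4.57 and 4.13 to 4.63. Of the megakaryocyte markers 5 of 5 had a lower mean in LRC, and of the erythroid markers 3 of 4. It was 3 of 5 both for neutrophil and monocyte and for endothelial and stromal markers. For T cell markers it was 1 of 3, and for B cell markers 0 of 4. Of all probe sets 44.7% had a lower mean. The part of these marker lists in the results below was not tested. In such bulk samples, fewer cells that hold a transcript and less transcript per cell cannot be told apart.

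None of the 24 probe sets passed the threshold of 0.05 on the adjusted p (limma, Benjamini-Hochberg over all probe sets; adjusted p 0.998 to 0.999), and neither did any other of the 45037 probe sets tested (0%). At an unadjusted p under 0.05, 2 of the 24 were lower in LRC, 1 each of Cdk2 and Cdk6, and 0 were higher. Among all probe sets 1.97% were lower and 1.74% higher by that rule, 3.71% in all. In the same 2 member probe sets no LRC array reached the lowest non-LRC array, where 3.4% of all probe sets did, and 0 had all LRC values above, where 4.88% did, or 8.28% in either direction. The kinases and the cyclins differed in the sign of their means. Of 8 kinase probe sets 7 had a lower mean in LRC, and of 16 cyclin probe sets 12 had a higher mean, while 44.7% of all probe sets had a lower mean. The median difference was -0.20 for the kinases and 0.09 for the cyclins, against 0.04 for all probe sets tested (log2, LRC minus non-LRC). These counts are a description: several probe sets read 1 gene and are not independent, and the difference between cyclins and kinases was not tested. Without non-LRC replicate 1, only 7 of the 16 cyclin probe sets had a higher mean.

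**Figure D1:**
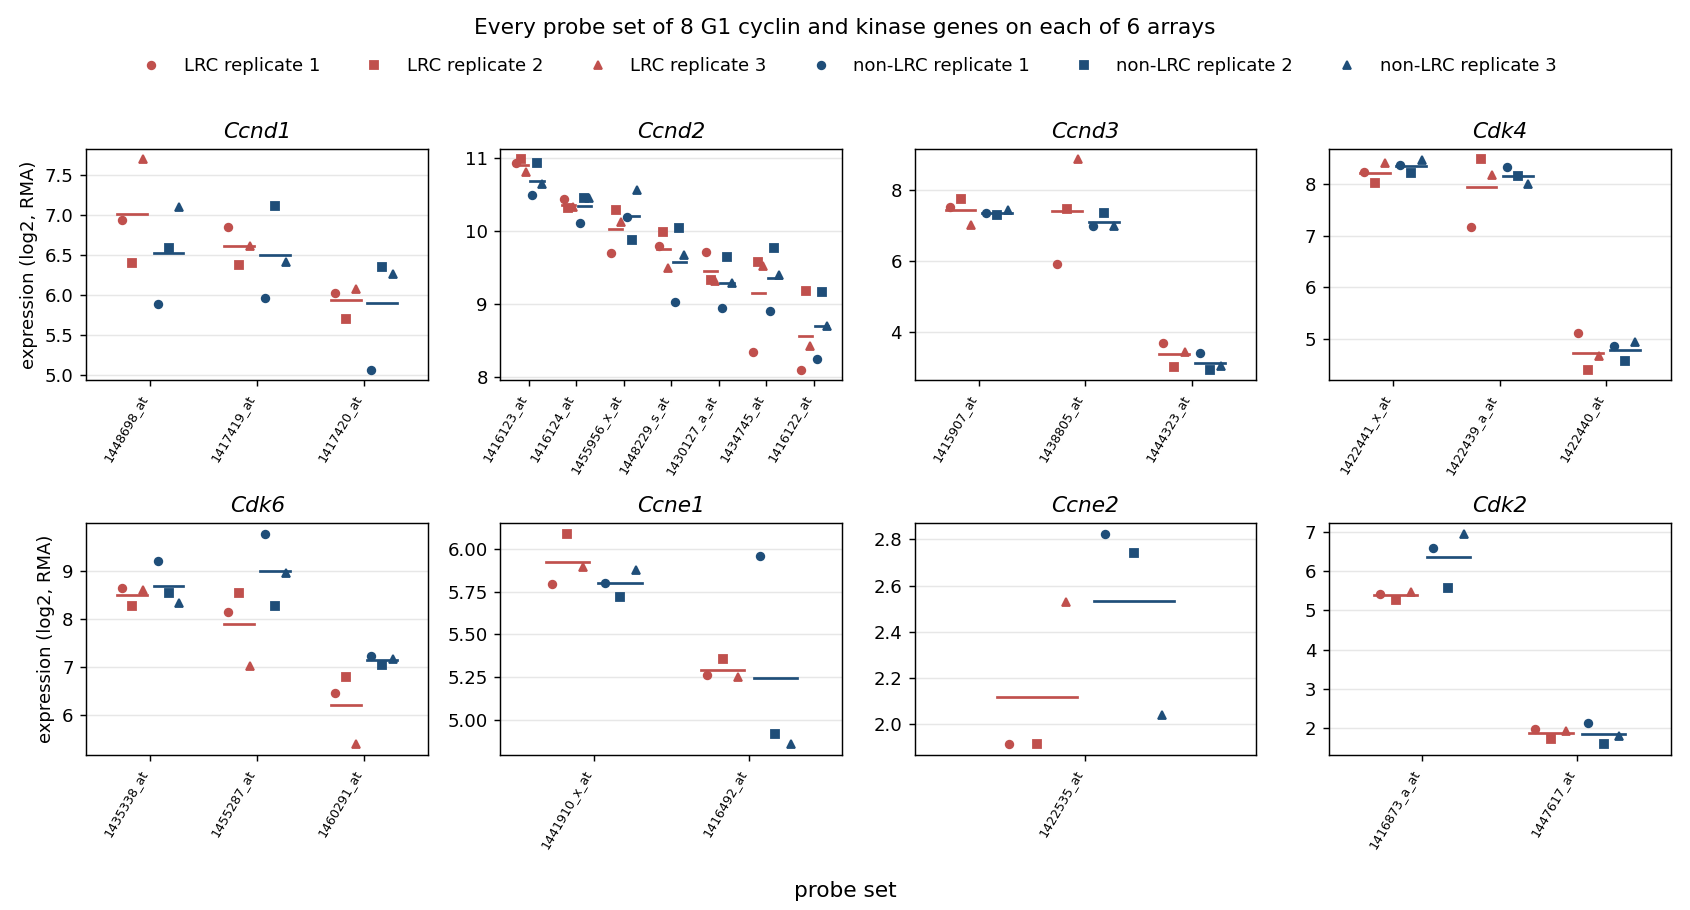
Expression (log2, RMA values) of every probe set of the 8 genes on each array, with LRC in red left of non-LRC in blue, a marker shape for each replicate and a bar at each group's mean; the vertical scale differs between panels. For Cdk2 1416873_a_at the 3 LRC values sit at 5.26 to 5.47, below the non-LRC values of 5.57 to 6.95, while the groups overlap for all Ccnd1, Ccnd2 and Ccnd3 probe sets.

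The D-type cyclins did not differ between LRC and non-LRC beyond the spread between replicates. Of their 13 probe sets 10 had a higher mean in LRC and 3 a lower one, and in 13 of 13 the groups overlapped. By the brightest probe set of each gene, the SE of the difference was 0.20 for Ccnd2, 0.24 for Ccnd3 and 0.44 for Ccnd1.

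Ccnd1, the D-type cyclin best known as a target of mitogen signalling, had values of 6.94, 6.40 and 7.70 in LRC and 5.88, 6.59 and 7.10 in non-LRC with its brightest probe set, 1448698_at (log2). LRC replicate 3 was the highest array and non-LRC replicate 1 the lowest, and the other 4 values overlapped. The difference was 0.49 (SE 0.44, 95% interval -0.58 to 1.56), from means of 7.01 (SD 0.65) over the 3 LRC arrays and 6.52 (SD 0.61) over the 3 non-LRC arrays. Its other probe sets, 1417419_at and 1417420_at, differed by 0.12 (SE 0.33) and 0.04 (SE 0.38). Non-LRC replicate 1 was the lowest array with all 3 probe sets of Ccnd1. Without that array the 3 differences were 0.17, -0.15 and -0.38, so the sign of the Ccnd1 differences rested on it for 2 of 3 probe sets.

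Ccnd2, the D-type cyclin that cytokines induce through STAT5 in blood cells, lay at or above the 91.8th percentile of every array with all 7 of its probe sets. Its brightest probe set, 1416123_at, was at 10.93, 10.98 and 10.80 in LRC and at 10.50, 10.93 and 10.64 in non-LRC. The LRC values were close together, and non-LRC replicate 2 fell among them. The difference was 0.22 (SE 0.20, 95% interval -0.25 to 0.69), a fold change between 0.839 and 1.61. Probe set 1416124_at gave 0.02 (SE 0.19, 95% interval -0.43 to 0.48), which bounds the fold change between 0.741 and 1.39. The other 5 probe sets differed by -0.21 to 0.18. Of the 7, 4 had a higher and 3 a lower mean in LRC, and the widest of them, 1434745_at, had 1 low LRC array (8.34 in replicate 1, against 9.57 and 9.52 in the others; non-LRC 8.90, 9.77 and 9.39). A change of 2-fold or more in either direction lay outside the intervals of 1416123_at and 1416124_at, whereas those of 1434745_at (-1.20 to 0.79) and 1416122_at (-1.02 to 0.76) include a 2-fold lower level.

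Ccnd3, the D-type cyclin of lymphoid and erythroid precursors, was at 7.53, 7.75 and 7.03 in LRC and 7.36, 7.31 and 7.45 in non-LRC with 1415907_at. Its difference was 0.07 (SE 0.24, 95% interval -0.51 to 0.64). The non-LRC values lay inside the LRC range. The second probe set, 1438805_at, spread over 5.93, 7.46 and 8.88 in LRC, against 6.98, 7.37 and 6.99 in non-LRC. The LRC SD of this probe set was 1.48, the largest of any member, against 0.23 in non-LRC, and its difference of 0.31 (SE 0.70) became -0.42 without LRC replicate 3. The 2 probe sets thus put the LRC arrays in different orders: replicate 3 was the lowest LRC array with the first and the highest with the second. The third, 1444323_at, lay between the 26.8th and 38.0th percentile of the arrays and differed by 0.26 (SE 0.25).

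**Figure D2:**
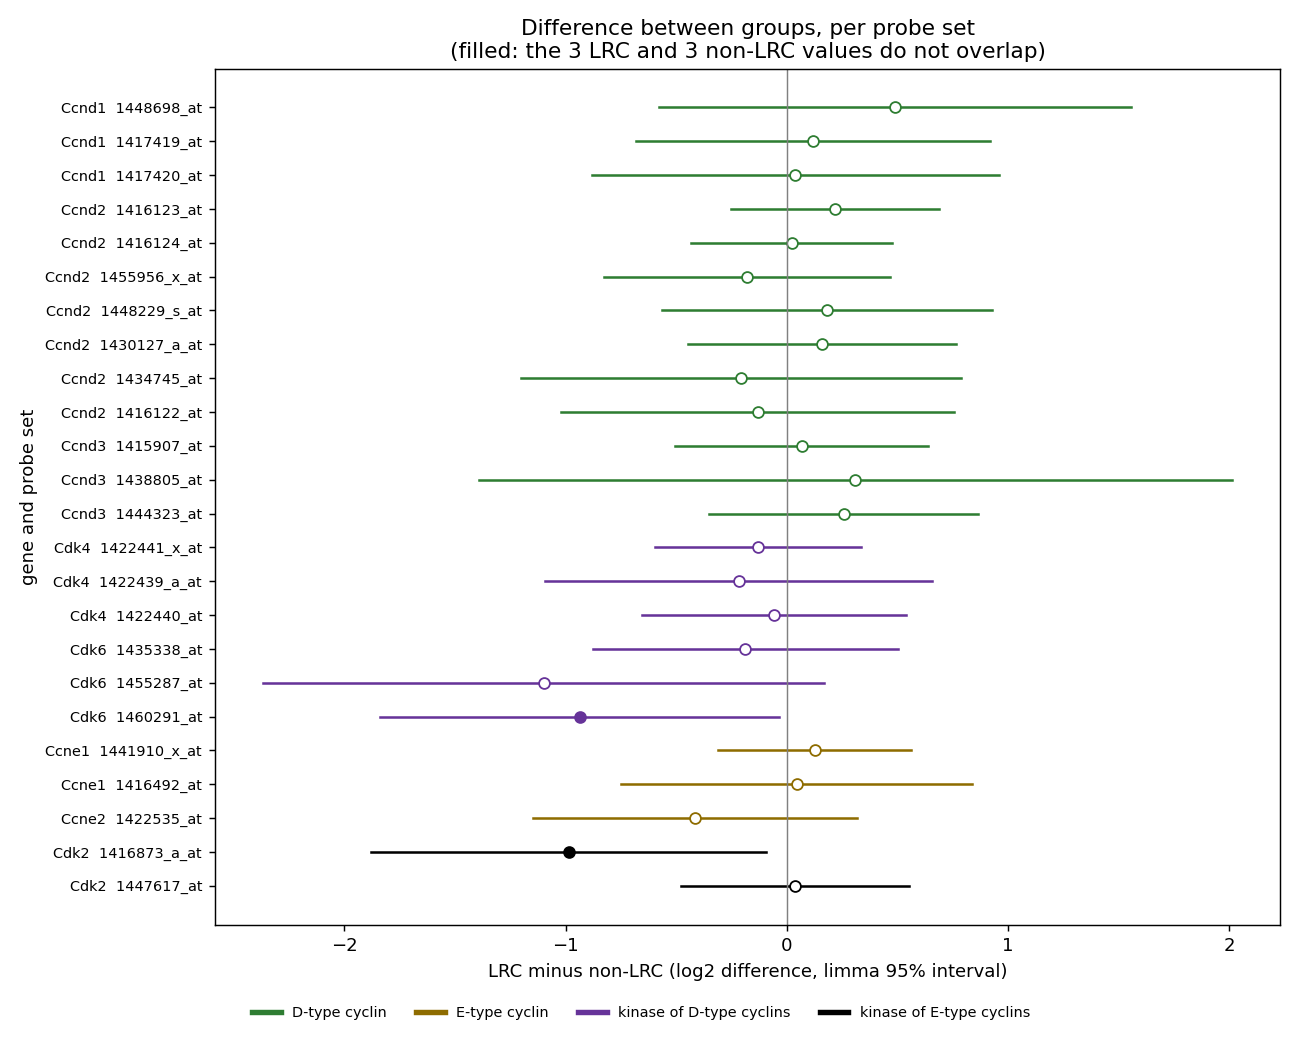
Difference LRC minus non-LRC (log2) for each of the 24 probe sets, with limma's 95% interval as a line and colour for the role; filled points mark probe sets whose LRC and non-LRC values do not overlap. The 2 filled points are Cdk6 1460291_at at -0.94 and Cdk2 1416873_a_at at -0.99, and the intervals of the other 22 probe sets include 0.

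The 3 lowest differences among the 24 probe sets belonged to Cdk6 1455287_at, Cdk2 1416873_a_at and Cdk6 1460291_at. By the brightest probe set of each gene, Cdk6 (-0.19) lay close to Cdk4 (-0.13), and Ccne2 (-0.42) lay below both. Probe sets of Cdk4 and Cdk6 numbered 6, and 6 of 6 had a lower mean in LRC. For Cdk2, 1 probe set was lower and the other lay at the bottom of the arrays. Neither gene passed the adjusted threshold.

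The RefSeq sequences upstream of the 3 kinase genes are given for context (250 bases before the start, mouse build GRCm38.p6), because 7 of 8 kinase probe sets shared a sign. The window of Cdk2 is chr10:128705052-128705301 (minus strand), of Cdk4 chr10:127063285-127063534 (plus strand) and of Cdk6 chr5:3343643-3343892 (plus strand). Capitals mark matches on either strand to 1 of 4 E2F-type motifs, TTTCCCGC, TTTGGCGC, TTTCGCGC or TTTGCCGC, and to the E-box CACGTG, the letters bound by MYC and its partners. The motifs do not overlap in these windows.
Cdk2: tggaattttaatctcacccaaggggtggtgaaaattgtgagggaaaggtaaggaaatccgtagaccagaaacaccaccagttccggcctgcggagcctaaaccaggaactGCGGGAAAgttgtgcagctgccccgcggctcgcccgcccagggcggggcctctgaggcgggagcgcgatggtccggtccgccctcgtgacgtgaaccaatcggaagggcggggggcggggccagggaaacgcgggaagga
Cdk4: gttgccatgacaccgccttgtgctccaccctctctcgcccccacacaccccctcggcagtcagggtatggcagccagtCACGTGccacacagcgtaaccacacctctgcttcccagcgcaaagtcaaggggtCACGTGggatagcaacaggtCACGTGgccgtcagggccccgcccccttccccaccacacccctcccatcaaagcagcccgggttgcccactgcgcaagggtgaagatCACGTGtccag
Cdk6: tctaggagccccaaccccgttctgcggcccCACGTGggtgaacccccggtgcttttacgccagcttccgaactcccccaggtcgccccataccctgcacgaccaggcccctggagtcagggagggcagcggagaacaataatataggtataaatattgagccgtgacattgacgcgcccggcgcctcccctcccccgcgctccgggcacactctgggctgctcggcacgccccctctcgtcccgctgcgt
The Cdk2 window held 1 E2F-type match, TTTCCCGC on the opposite strand, 140 to 133 bases before the start. Such a match was found in 1.86% of the 32851 windows of the same length in the table. Cdk4 held 4 E-boxes, ending 167, 113, 93 and 6 bases before the start, and Cdk6 held 1, 220 to 215 bases before it; 6.02% of windows held at least 1. The 3 windows of Ccne1 and Ccnd3 held neither. Windows were matched for 5 of the 8 genes, by symbol; Ccnd1, Ccnd2 and Ccne2 were the others. A match says only that these letters are there.

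Cdk4, the kinase that pairs with D-type cyclins in most cells, was at 8.23, 8.02 and 8.40 in LRC and 8.37, 8.20 and 8.47 in non-LRC with its brightest probe set, 1422441_x_at. The values interleaved, and the difference was -0.13 (SE 0.19, 95% interval -0.60 to 0.34). The suffix _x marks probe sets in which some probes also match other transcripts. Probe set 1422439_a_at gave 7.17, 8.48 and 8.17 in LRC and 8.33, 8.16 and 7.99 in non-LRC. Its difference of -0.22 (SE 0.36) rested on LRC replicate 1, without which it was 0.17. The third, 1422440_at, differed by -0.06 (SE 0.25).

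Cdk6, the other kinase of D-type cyclins, had a lower LRC mean with each of its 3 probe sets, by unequal amounts. Probe set 1460291_at read 6.45, 6.79 and 5.40 in LRC and 7.23, 7.04 and 7.17 in non-LRC. Every LRC array was below every non-LRC array, and the non-LRC values were close together. The difference was -0.94 (SE 0.37, 95% interval -1.84 to -0.03, adjusted p = 0.998 by limma), a 1.91-fold lower level in LRC that did not pass the threshold. Probe set 1455287_at read 8.14, 8.54 and 7.03 in LRC and 9.78, 8.27 and 8.96 in non-LRC, and differed by -1.10 (SE 0.52, 95% interval -2.37 to 0.17). There LRC replicate 2 lay above non-LRC replicate 2. The brightest probe set, 1435338_at, read 8.65, 8.27 and 8.60 in LRC and 9.22, 8.53 and 8.33 in non-LRC, and differed by only -0.19 (SE 0.29, 95% interval -0.88 to 0.50).

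Averaged over its 3 probe sets, Cdk6 was at 7.75, 7.87 and 7.01 in LRC and 8.74, 7.95 and 8.15 in non-LRC. The groups did not overlap in this mean, but LRC replicate 2 nearly met non-LRC replicate 2. Of the 8 genes averaged in this way, Cdk6 was the 1 whose groups did not overlap. The share over all genes averaged in this way was not computed. Among all single probe sets, an unlike measure, groups did not overlap in 8.28%, with LRC lower in 3.4%. Whether 1 of 8 sets Cdk6 apart was therefore not tested. LRC replicate 3, the array of the lowest actin 3' minus 5' difference, was the lowest array with 1460291_at and 1455287_at. Without it these differences were -0.53 and -0.66. With LRC replicate 2 as the lone LRC array, the 1 without bright hybridization controls, they were -0.36 and -0.46, and with the control level as a covariate -0.67 and -0.90. Both settings that leave out LRC replicate 3 thus gave differences smaller by over 1.5 times for both probe sets, as did leaving out non-LRC replicate 1 for 1455287_at (-0.71).

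**Figure D3:**
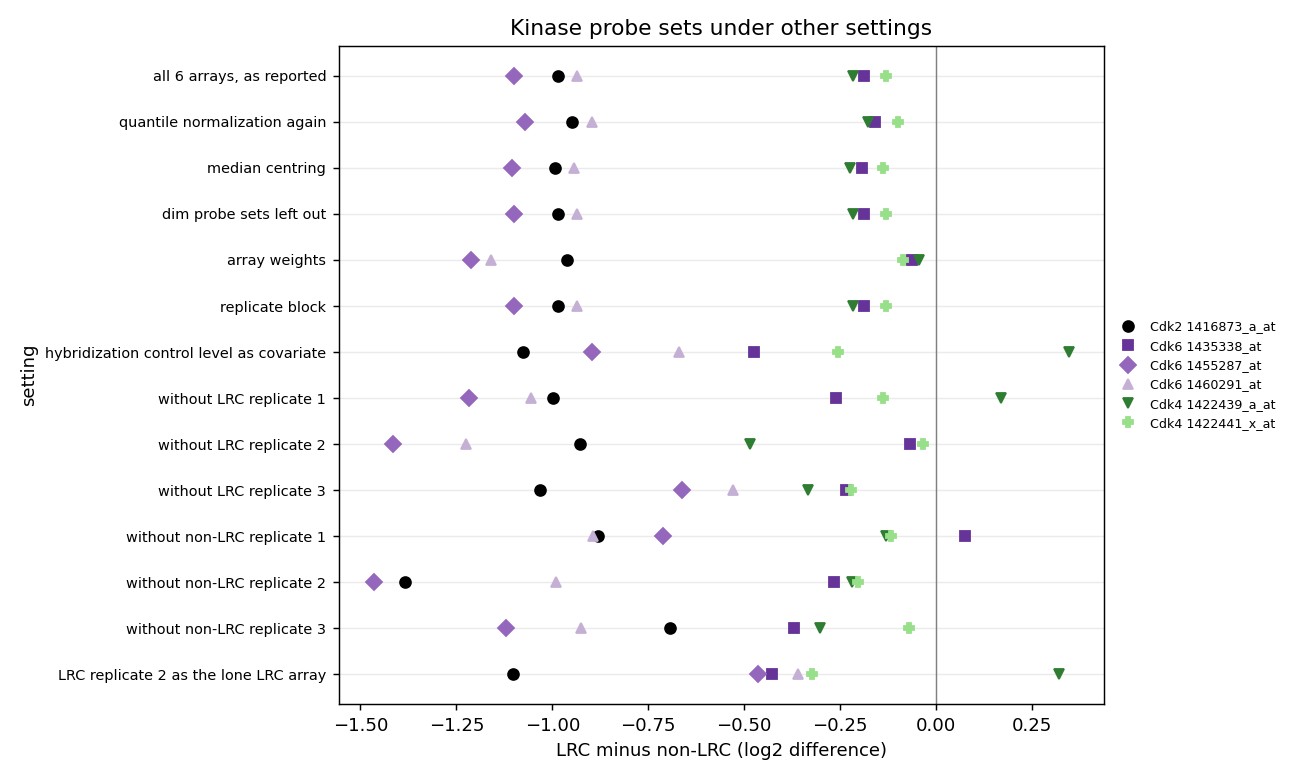
Difference LRC minus non-LRC (log2, horizontal axis) of 6 kinase probe sets (those above percentile 60 on every array) under each setting named on the vertical axis, with the values from all 6 arrays at the top. Cdk2 1416873_a_at stays between -1.38 and -0.69, whereas Cdk6 1460291_at runs from -1.23 to -0.36 and Cdk4 1422439_a_at crosses 0.

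The E-type cyclins did not differ beyond the spread between replicates, and Ccne2 was read near the bottom of the arrays. Ccne1, an E2F target and the activator of CDK2 at the start of S phase, was at 5.80, 6.09 and 5.89 in LRC and 5.80, 5.72 and 5.88 in non-LRC with 1441910_x_at. The groups overlapped within a range of 0.37, and the difference was 0.13 (SE 0.18, 95% interval -0.31 to 0.56, a fold change between 0.807 and 1.47). As an _x probe set, 1441910_x_at may also read other transcripts. The other probe set, 1416492_at, read 5.26, 5.36 and 5.25 in LRC and 5.96, 4.92 and 4.86 in non-LRC. It differed by 0.05 (SE 0.33, 95% interval -0.75 to 0.84), a wider range of fold change, between 0.596 and 1.79. Here the LRC arrays lay together and non-LRC replicate 1 stood above the rest. Ccne2 was at 1.91, 1.92 and 2.53 in LRC and 2.83, 2.74 and 2.04 in non-LRC, between the 2.15th and 23.0th percentile of the arrays. Its difference of -0.42 (SE 0.30, 95% interval -1.15 to 0.32) is uncertain at that level.

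Cdk2, which joins cyclin E and later cyclin A to drive replication, was at 5.40, 5.26 and 5.47 in LRC and 6.58, 5.57 and 6.95 in non-LRC with 1416873_a_at. The groups did not overlap. The LRC arrays lay close together, while non-LRC replicate 2 sat just above them and far below the other non-LRC arrays. The mean was 5.38 (SD 0.11) over the 3 LRC arrays and 6.37 (SD 0.71) over the 3 non-LRC arrays, which is 1.98-fold lower in LRC. The difference of -0.99 (SE 0.37, 95% interval -1.88 to -0.09) did not pass the threshold (adjusted p = 0.998 by limma). It ran from -1.38 to -0.69 in 14 other settings. Its sign could not change in most of them, so the kept sign is no support. Leaving out arrays cannot reverse groups that do not overlap, and some settings refit the same difference. The difference was -1.10 with LRC replicate 2 as the lone LRC array and -1.08 with the level of the hybridization controls as covariate. The second Cdk2 probe set, 1447617_at, lay between percentiles 0.442 and 7.62 of the arrays and differed by 0.04 (SE 0.21). It gave 1.98, 1.73 and 1.93 in LRC and 2.14, 1.59 and 1.80 in non-LRC, near the bottom of the scale.

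The genes whose brightest probe sets most resembled a member's over the 6 arrays were found by the root mean square difference between log2 values, each centred on its own mean. Only genes that varied at least as much as the member were compared. For Cdk2 these were Pnpla3 (0.17) and Cdca3 (0.18) among 3166 genes, for Ccnd1 4930480K15Rik (0.21) and Dennd6b (0.22) among 4104, and for Cdk6 Rab39 (0.08) and Tex37 (0.08) among 9546. Over the other 5 members the closest 2 genes were at 0.06 to 0.15. They were Rnf227 and Mrpl23 for Ccnd2, Cir1 and Cst7 for Ccnd3, and Slc15a3 and 4921513I03Rik for Cdk4. For Ccne1 they were Mkx and Agfg2, and for Ccne2 Zfp410 and Ccdc173. No test was made of these profiles.

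Other genes of G1 control were described from a list of 50 genes by role, of which 49 were measured, each by its brightest probe set. None passed the adjusted threshold. At an unadjusted p under 0.05 (limma), 6 were lower in LRC and 0 were higher, where 1.97% and 1.74% of all probe sets were. Of the 6, 4 were S phase partners or E2F target genes. Of the 49, 36 had a lower mean in LRC, with a median difference of -0.24 against 0.04 for all probe sets tested. In 9 every LRC array was below every non-LRC array (3.4% of all probe sets), and in 0 above. With LRC replicate 2 as the lone LRC array, 30 of the 49 had a lower LRC value, and the median was -0.035. Counts by role stand beside the 44.7% of all probe sets with a lower mean, and no difference between roles was tested. All probe sets are an unlike set, as the shares over the brightest probe sets of all genes were not computed.

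Among the inhibitors, 4 of 7 had a higher mean in LRC, with a median difference of 0.40. Cdkn1c, which encodes the CDK inhibitor p57, was at 8.36, 7.37 and 8.47 in LRC and 7.34, 7.58 and 7.01 in non-LRC. Cdkn2c, which encodes p18, an inhibitor of CDK4 and CDK6, was at 4.08, 5.20 and 5.28 in LRC and 5.16, 5.65 and 6.77 in non-LRC. The groups overlapped for both, and the differences were 0.76 (SE 0.35) and -1.01 (SE 0.51); without LRC replicate 1 or non-LRC replicate 3 that of Cdkn2c was -0.62 or -0.55. The inhibitors' median turned to -0.037 without LRC replicate 2 and -0.11 without non-LRC replicate 3. With LRC replicate 2 alone, Cdkn1c differed by 0.06.

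The pocket proteins are what the cyclin kinases phosphorylate. Rbl1 (p107) was at 4.86, 4.91 and 4.70 in LRC and 6.07, 4.44 and 5.65 in non-LRC. Its difference of -0.57 (SE 0.42) was -0.23 without non-LRC replicate 1 and -1.04 without non-LRC replicate 2. Rbl2 (p130) was at 8.62, 7.18 and 6.96 in LRC and 7.01, 6.84 and 6.77 in non-LRC. Its difference of 0.71 (SE 0.45) was 0.20 without LRC replicate 1, and the 1 other Rbl2 probe set went the other way.

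All 5 genes of the group of CDK-activating kinase and phosphatase, which also held the inhibitory kinase Wee1, had a lower mean in LRC (median -0.45; -0.76 without LRC replicate 2 and -0.70 without non-LRC replicate 3). Cdc25a, the phosphatase that activates CDK2, was at 6.54, 6.33 and 5.86 in LRC and 7.26, 7.23 and 7.03 in non-LRC. The groups were well apart, with a difference of -0.93 (SE 0.24), although 1 of the 2 further Cdc25a probe sets was of opposite sign. Cdk7, the kinase that activates other CDKs, was at 6.63, 6.89 and 5.80 in LRC and 7.60, 6.90 and 7.04 in non-LRC (-0.74, SE 0.35; -0.42 without LRC replicate 3), and 3 of 4 further Cdk7 probe sets were also lower in mean. LRC replicate 2 nearly met non-LRC replicate 2.

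Of the E2F and DP factors 7 of 10 had a lower mean in LRC (median -0.18; -0.096 without LRC replicate 1, -0.28 without LRC replicate 2, and -0.28 and -0.37 without non-LRC replicates 1 and 2). E2f2, an activating E2F, was at 3.79, 3.95 and 3.82 in LRC and 4.68, 3.99 and 4.56 in non-LRC, and Tfdp1, the DP partner of E2F proteins, at 8.09, 8.32 and 7.68 in LRC and 8.77, 8.40 and 8.70 in non-LRC. Neither overlapped between groups, with differences of -0.56 (SE 0.24) and -0.60 (SE 0.24), but for both LRC replicate 2 nearly met non-LRC replicate 2. E2f2 lay below the array median on every LRC array. Of the 12 measured S phase partners and E2F target genes 11 had a lower mean in LRC (median -0.86). In 5 of the 12 every LRC array was below every non-LRC array (3.4% of all probe sets). Without LRC replicate 1, the array with the brightest hybridization controls and the highest Gapdh 3' minus 5' difference, 10 of 12 had a lower mean and the median was -0.52. With LRC replicate 2 alone it was -0.25. Ccna2, cyclin A2, the later partner of CDK2, was at 4.99, 6.87 and 6.85 in LRC and 8.79, 7.20 and 8.60 in non-LRC (-1.96, SE 0.66), and Cdc6, which loads the replicative helicase, differed by -1.76 (SE 0.56). The list was written with earlier results on replication genes of these arrays known, so these counts are not independent evidence.

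Genes of cyclin and inhibitor turnover had 6 of 9 members with a lower mean (median -0.07). Without LRC replicate 1 it was 4 of 9, with a median of 0.095, and the median was -0.27 without LRC replicate 3 and -0.22 without non-LRC replicate 1. Cks1b, a cofactor of the ligase that degrades p27, differed by -0.45 (SE 0.24) and Cul1, the scaffold of that ligase, by -0.56 (SE 0.34; -0.27 without LRC replicate 3). Among the upstream genes, Myc was at 8.15, 9.47 and 8.59 in LRC and 9.35, 9.84 and 9.30 in non-LRC (-0.76, SE 0.37; -0.46 without LRC replicate 1), and Mycn differed by -0.13 (SE 0.21). The groups overlapped for all 4 of these genes.

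**Figure D4:**
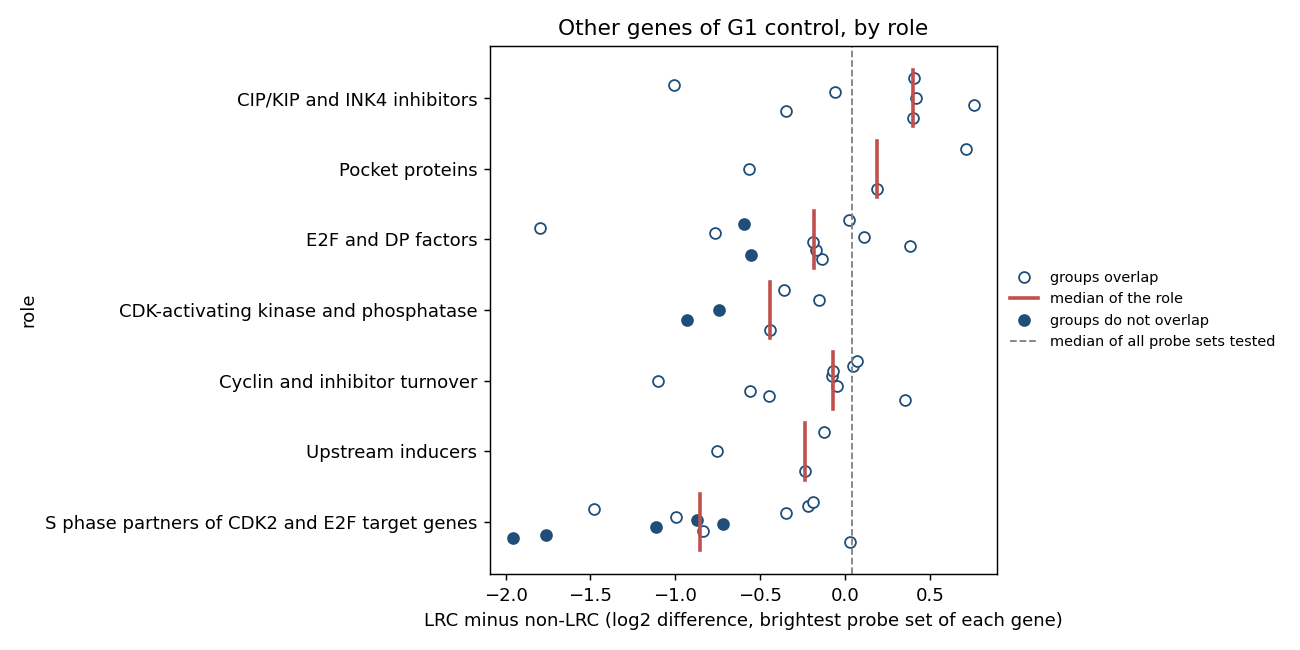
Difference LRC minus non-LRC (log2) of 49 other genes of G1 control by role, each point 1 gene by its brightest probe set; red bars are the medians of the roles and the dashed line the median of all probe sets tested (0.04). The medians run from 0.40 for the inhibitors to -0.86 for S phase partners and E2F targets, and the 9 filled points, whose groups do not overlap, all lie below 0.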

How the data were processed

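Total RNA of sorted stem cells was isolated with a kit for small samples, amplified in 2 rounds and labelled with biotin, per the labels' protocols, and each sample was read on 1 array. The authors deposited 1 log2 value per probe set and array, made with RMA per the submitters' processing notes; they give no version, and the base of the logarithm follows from the range of values. RMA brings arrays to 1 common distribution and hides any difference in RNA content between cells. Arrays carry no read depth, so the precision is limited by how many there are.

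Of 45101 probe sets, 64 controls were left out. Groups were compared over 45037 probe sets by the moderated linear model of limma (version 3.58.1; R version 4.3.3), as LRC minus non-LRC, with Benjamini-Hochberg adjusted p and a threshold of 0.05; intervals are 95% intervals per probe set, not adjusted for the number of tests. Of the probe sets tested, 34945 named 1 gene symbol, 932 several and 9160 none; for genes other than the members, current symbols came from a RefSeq table of GRCm38.p6, joined by gene identifier, and promoter windows are RefSeq's. The members and the lists were chosen with earlier results of these data known. Named were every probe set of the members, the 2 genes of smallest p in each role, and the 2 genes of most alike profile. Every array value was printed for each member's brightest probe set and for those whose groups did not overlap, and for further probe sets chosen after their values were seen. The fit was tested on simulated data over 45037 probe sets, 50 changed at each size: of those lowered by 1, 2, 3 or 4 log2 units the fit recovered 0%, 32%, 52% or 72%, and it made 4 false calls. A change of 2-fold was thus not recovered in this simulation, where few probe sets changed and noise was drawn independently for each. It does not settle what could be detected in a probe set of low spread, or if more probe sets changed. Columns of other samples numbered 0. Alternatives were other normalizations, a filter, another moderation, weights per array, a replicate block, a control-level covariate, other thresholds, other summaries per gene and leaving out arrays.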

Additional observations from a re-analysis of the deposited data

How the results depend on the processing

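The count of member probe sets past the threshold was 0 under all alternatives except an unadjusted p under 0.05, which gave 2 of 24, and 1673 of all probe sets and 6 of the 49 listed partners; with a log2 difference of at least 1 added, 0 members, 774 of all and 2 partners remained past that rule. An adjusted p under 0.1 called 0. The median difference of the members, 0.03, ran from -0.09 to 0.03 when single arrays were left out; no setting moved it by more than the spread between arrays. With single arrays left out, 6 to 8 of 8 kinase probe sets had a lower mean and 7 to 12 of 16 cyclin probe sets a higher one, the lowest without non-LRC replicate 1; these counts were added after the data were seen. Groups of 3 to 5 member probe sets did not overlap when an array was left out, as fewer values overlap less. With LRC replicate 2 alone it was 12 of 24, where 1 value need only fall outside the non-LRC range. By the mean or the brightest probe set of each gene it was 1 of 8. The shares over all probe sets or genes were not computed for these settings, so these counts show nothing particular to the members.

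With single arrays left out, or LRC replicate 2 alone, the 14 named partner genes kept their sign. These genes were named for the smallest p of their role on the same arrays. For those whose groups do not overlap the sign could not change, so the kept signs are no support. These settings were also added after the data were seen. The median of all 49 ran from -0.40 to -0.23 with single arrays left out, and that of the S phase partners and E2F targets from -1.19 to -0.52.

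With the replicate block, the calls stayed at 0 and the median difference was 0.03. Deviations of same-numbered arrays from their group means correlated at 0.08, 0.14 and 0.08 across probe sets. Differently numbered arrays were not compared in this way, so these values cannot decide whether the numbers pair samples. The highest correlation between any 2 arrays, 0.97, was that of LRC replicate 2 with non-LRC replicate 2. The labels state no pairing, and the main fit used none.

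Of 333 recomputed differences of single probe sets, 46 changed sign and 0 passed the threshold (smallest adjusted p 0.633). Those of Cdk2 1416873_a_at, Cdk6 1460291_at and 1455287_at, Cdk4 1422441_x_at, Ccne2, Ccne1 1441910_x_at and Ccnd2 1416123_at kept their sign throughout. The filter, the other moderation and the replicate block gave the same differences as the main fit and could not change a sign. Where the groups do not overlap, as for Cdk2 1416873_a_at and Cdk6 1460291_at, leaving out arrays could not change it either. Quantile normalization turned Cdk2 1447617_at to -0.011. Array weights turned Ccnd3 1415907_at to -0.056, Ccnd2 1416124_at to -0.040 and Ccnd1 1417420_at to -0.10. The hybridization control covariate gave 0.47 for Ccnd2 1416122_at, 0.40 for 1434745_at and 0.11 for 1455956_x_at, 0.35 for Cdk4 1422439_a_at, -0.021 for Ccne1 1416492_at, -0.039 and -0.0017 for Ccnd1 1417419_at and 1417420_at, -0.12 for Ccnd3 1444323_at and -0.13 for Cdk2 1447617_at. With LRC replicate 2 as the lone LRC array, which is assumed to vary like the non-LRC arrays, Ccnd2 gave 0.48 (1416122_at), -0.028 (1416124_at), 0.22 (1434745_at) and 0.076 (1455956_x_at), Ccnd1 -0.13, -0.19 and -0.12 (1417419_at, 1417420_at and 1448698_at), Cdk4 1422439_a_at 0.32, Ccnd3 1444323_at -0.11 and Cdk2 1447617_at -0.11. Leaving out single arrays gave ranges across 0 of -0.090 to 0.27 and -0.42 to 1.06 for Ccnd3 1415907_at and 1438805_at, and of -0.15 to 0.43 and -0.38 to 0.27 for Ccnd1 1417419_at and 1417420_at. For Ccnd2 they were -0.44 to 0.10 (1416122_at), -0.092 to 0.081 (1416124_at), -0.015 to 0.33 (1430127_a_at), -0.43 to 0.20 (1434745_at), -0.094 to 0.41 (1448229_s_at) and -0.35 to 0.0019 (1455956_x_at). For Cdk4 they were -0.48 to 0.17 (1422439_a_at) and -0.25 to 0.11 (1422440_at), for Cdk6 1435338_at -0.37 to 0.076, for Ccne1 1416492_at -0.15 to 0.40 and for Cdk2 1447617_at -0.089 to 0.18. The cause of these sign changes was not tested.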
